A study of Mus musculus with 44 samples.

Results

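Acta2, Tagln, Myl9, Cnn1, Tpm1, Tpm2, Actg2 and Sdpr are genes of the contractile apparatus and caveolae of smooth muscle cells and myofibroblasts. All 8 symbols were found in the count table of 46078 genes, and they are followed here through every library of cultured mouse peritoneal macrophages. They were chosen by name, with earlier results of these data known. Smooth muscle contracts when myosin, switched on through its regulatory light chain, pulls on filaments of smooth muscle actin that are lined with tropomyosin. Fibroblasts and mesothelial cells, the cells that line the peritoneum, take up part of this programme when they turn into myofibroblasts, and resting macrophages are not known for it. Many of these genes are switched on by serum response factor (SRF), which binds a short DNA element called the CArG box, under the influence of actin dynamics and transforming growth factor beta.

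The study read polyadenylated RNA of thioglycolate-elicited peritoneal cells of C57BL/6 mice, and by its title it asked how molecules released by damaged cells relate to an M1 state of macrophages. The cells were collected 4 days after the injection, pooled from several mice into 1 isolate, and those that adhered over 24 h in culture were called macrophages, with no sort by marker. They were kept in DMEM with 10% fetal bovine serum and received nothing (untreated), an extract of H9c2 cells at 10 µg/mL, lipopolysaccharide (LPS) at 100 ng/mL or interleukin 4 (IL4) at 10 ng/mL, for 8, 24 or 72 h. H9c2 is a muscle cell line derived from rat heart, LPS is a bacterial product that drives classical activation, and IL4 drives alternative activation. Each of the 12 groups had 4 libraries, except extract at 24 h and at 72 h, untreated at 72 h and IL4 at 72 h, which had 3. All replicates were cultures of the same isolate, so p-values measure the spread between cultures and not between animals.

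The libraries held 0.908 to 26.6 M gene counts (M being 1e+06 reads), and the untreated 72 h libraries, on which most results below rest, were shallow at 1.79, 2.86 and 4.47 M. In 7 libraries, all named replicate 3, over 10% of the reads fell into the ambiguous entry of the counting, and 5 libraries had under 2 M counts. Of the 11 macrophage markers listed, none was at 0 in any 72 h group, and their summed level was 8468 CPM or more in every library. CPM are counts per M of the library size scaled with the trimmed mean of M values (TMM), and levels are given as mean ± SD over libraries.

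Of the 8 genes, 6 passed the filter on low counts and were among 14537 genes tested with edgeR's quasi-likelihood test in 1 fit of all 44 libraries. Cnn1 had 0 to 5 counts per library and Actg2 0 to 13, so these 2 genes were not tested. Myl9 passed the filter through the untreated 72 h libraries alone, where it was at 4.27 to 6.36 CPM. In no other library was it above 1.09 CPM. Its test therefore depends on the group in which it was high, and counts of all 6 genes at 72 h include it. A gene is said to have risen or fallen where its Benjamini-Hochberg adjusted p in that fit was under 0.05. Whether the libraries of groups overlapped was examined gene by gene for the 8 genes only. The share of all tested genes without overlap was not counted, so such statements are descriptions. In the untreated 72 h cultures, per kilobase of exon, Tpm1 had the highest level of the 8 at 35.0 ± 8.88 CPM per kb, followed by Tagln at 19.1 ± 1.34, Acta2 at 15.5 ± 1.02 and Sdpr at 14.1 ± 6.59 (SD, n = 3). Tpm2 at 4.79 ± 1.75 and Myl9 at 4.74 ± 0.945 CPM per kb were lower and differed from each other by less than their spread, and Cnn1 at 0.281 ± 0.0977 and Actg2 at 0.122 ± 0.115 were the lowest.

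A stretch around 1 start of transcription per gene was searched for the CArG box. Other starts, introns and more distant bases were not searched. RefSeq's table of GRCm38.p6, the assembly of the files' build mm10, from 250 bases before to 50 after each start, held 6 of the 8 genes; Tagln and Actg2 were not in it. The CArG box was searched in its strict form, with 6 inner bases of A or T, and with 1 of those bases C or G, on both strands; the element is its own reverse complement in form, so both strands give the same places. The window of Acta2 (250 bases before the start at chr19:34255374-34255623, minus strand) held 2 boxes of the second kind, 84 and 34 bases before the start. The window of Myl9 (the same stretch at chr2:156775214-156775463, plus strand) held a strict box 161 bases and a box of the second kind 99 bases before the start. Neither form was found in the windows of Cnn1, Tpm1, Tpm2 or Sdpr. Distances are from the RefSeq start. The gene positions given below begin upstream of that start for Acta2 and Myl9, inside the stretch shown. Among all 32851 promoters of the table, 1.63% held the strict form, 8.5% the second form, 9.98% either and 0.822% at least 2 of either. The 250 bases before the start of Acta2 and Myl9 are shown with the boxes in capitals, beside those of Sdpr (chr1:51288876-51289125, plus strand, listed by RefSeq as Cavin2), which rose with them in the untreated cultures and has no match. A match is a stretch of letters and no proof that SRF binds there.
Acta2: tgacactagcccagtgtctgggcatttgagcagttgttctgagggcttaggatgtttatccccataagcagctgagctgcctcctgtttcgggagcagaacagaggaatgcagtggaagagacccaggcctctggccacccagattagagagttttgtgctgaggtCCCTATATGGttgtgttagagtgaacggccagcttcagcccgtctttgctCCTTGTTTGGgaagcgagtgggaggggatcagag
Myl9: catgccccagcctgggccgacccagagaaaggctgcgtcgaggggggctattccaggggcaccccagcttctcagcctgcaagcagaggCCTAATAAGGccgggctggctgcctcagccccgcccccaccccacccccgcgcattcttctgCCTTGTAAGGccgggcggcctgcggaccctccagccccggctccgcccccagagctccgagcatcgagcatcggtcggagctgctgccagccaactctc
Sdpr: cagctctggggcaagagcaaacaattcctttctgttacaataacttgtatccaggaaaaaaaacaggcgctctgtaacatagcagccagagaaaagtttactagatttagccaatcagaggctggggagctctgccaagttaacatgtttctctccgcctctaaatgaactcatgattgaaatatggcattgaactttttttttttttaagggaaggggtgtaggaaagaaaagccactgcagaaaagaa

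Between 24 and 72 h without stimulus, all 6 tested genes rose, and they did so in each of the 3 libraries. For Myl9, which passed the filter only through these 72 h libraries, the test is not independent of the rise. Between 8 and 24 h none of the 6 passed edgeR's test, with 1 of 6 at an unadjusted p under 0.05 and 0 by DESeq2, in a comparison where 0.537% of all tested genes were called in either direction. At 72 h against 24 h 8.24% of all tested genes rose, and at 72 h against 8 h 6.38% rose. The median log2 change of the 6 genes was 2.18 against 24 h and 2.54 against 8 h, where the median of all tested genes was 0.02 and -0.05. In whole-culture RNA, fewer cells of a type and less RNA per cell cannot be told apart, nor can more cells and more RNA per cell.

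Acta2 (ENSMUSG00000035783, GRCm38 chr19:34241090-34255590, minus strand), the smooth muscle alpha-actin that defines myofibroblasts, was read at 7.54, 9.82, 7.51 and 9.16 CPM in the untreated 8 h libraries and at 9.39, 12.5, 7.70 and 10.7 CPM at 24 h. At 72 h the 3 untreated libraries gave 31.6, 35.9 and 34.8 CPM. All 3 lay far above every earlier untreated library, and the rise from 24 h was 3.37-fold (log2 1.75 ± 0.20 SE, edgeR adjusted p = 1.86e-07).

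Tagln (ENSMUSG00000032085, chr9:45929619-45936058, minus strand) encodes transgelin or SM22 alpha, an actin-bundling protein that appears early in smooth muscle differentiation. Its 4 untreated libraries at 24 h gave 5.43, 6.21, 6.57 and 7.09 CPM, and the 3 at 72 h gave 35.0, 38.8 and 40.1 CPM. The groups did not overlap and the rise was 5.92-fold (log2 2.57 ± 0.22 SE, edgeR adjusted p = 3.01e-10). Exons of Tagln share 108 bases with Pcsk7 on the other strand and 1241 bases with the antisense gene Gm48529, and whether the counting used strand is not given in the sources used here, so reads of these genes may not be separated.

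Myl9 (ENSMUSG00000067818, chr2:156775420-156781658, plus strand) encodes the regulatory light chain of smooth muscle myosin. It was nearly unread in most cultures, at 0.247, 0.856, 0.432 and 0.378 CPM in the untreated 24 h libraries, which is 1 to 8 counts each. At 72 h the untreated libraries had 30, 12 and 11 counts, or 6.36, 4.27 and 5.89 CPM. The 72 h libraries were all above the 24 h libraries, a rise of 10.8-fold (log2 3.43 ± 0.51 SE, edgeR adjusted p = 2.00e-05).

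The tropomyosins lie along actin filaments and gate their use by myosin. Tpm1 (ENSMUSG00000032366, chr9:67022590-67049406, minus strand), which many cell types make in non-muscle forms, went from 101, 111, 122 and 136 CPM at 24 h to 255, 161 and 265 CPM at 72 h. Even the lowest 72 h library, replicate 3, exceeded the highest at 24 h, and the rise was 1.93-fold (edgeR adjusted p = 3.55e-05). Tpm2 (ENSMUSG00000028464, chr4:43514711-43523765, minus strand), a muscle tropomyosin, went from 3.95, 4.71, 2.51 and 4.54 CPM to 10.6, 11.4 and 19.8 CPM. Its 72 h libraries were again all higher, with replicate 4 well above the other two, and the rise was 3.48-fold (edgeR adjusted p = 0.000167).

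Sdpr (ENSMUSG00000045954, chr1:51289126-51302960, plus strand), now named Cavin2, encodes a coat protein that shapes caveolae, the membrane pits abundant in smooth muscle, fat and endothelium. It was at 5.43, 3.00, 3.80 and 5.01 CPM in the untreated 24 h libraries and at 66.4, 30.9 and 32.1 CPM at 72 h. Replicate 1 was far above the other two, and all 3 were above every 24 h library. The rise was 10.2-fold (log2 3.36 ± 0.34 SE, edgeR adjusted p = 1.51e-08).

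The untested pair had few counts. Cnn1 (ENSMUSG00000001349, chr9:22099216-22109630, plus strand), which encodes calponin 1, a brake on actomyosin found in mature smooth muscle, had 5, 2 and 1 counts in the untreated 72 h libraries against 0, 0, 4 and 2 at 24 h. Relative to depth this was a ratio of 5.04 with a 95% counting interval of 1.53 to 17.6, which covers counting error only. Actg2 (ENSMUSG00000059430, chr6:83512905-83536265, minus strand), the smooth muscle gamma-actin of gut and other hollow organs, had 1, 1 and 0 counts at 72 h against 4, 2, 9 and 6 at 24 h. The depth of these libraries leaves the ratio of Actg2 between 0.0409 and 1.47, so no change was detectable. In a fit without the filter on low counts, neither gene passed at 72 h against 24 h (edgeR adjusted p = 0.256 for Cnn1 and 0.571 for Actg2). Against 8 h neither passed there (0.112 and 0.693).

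**Figure D1:**
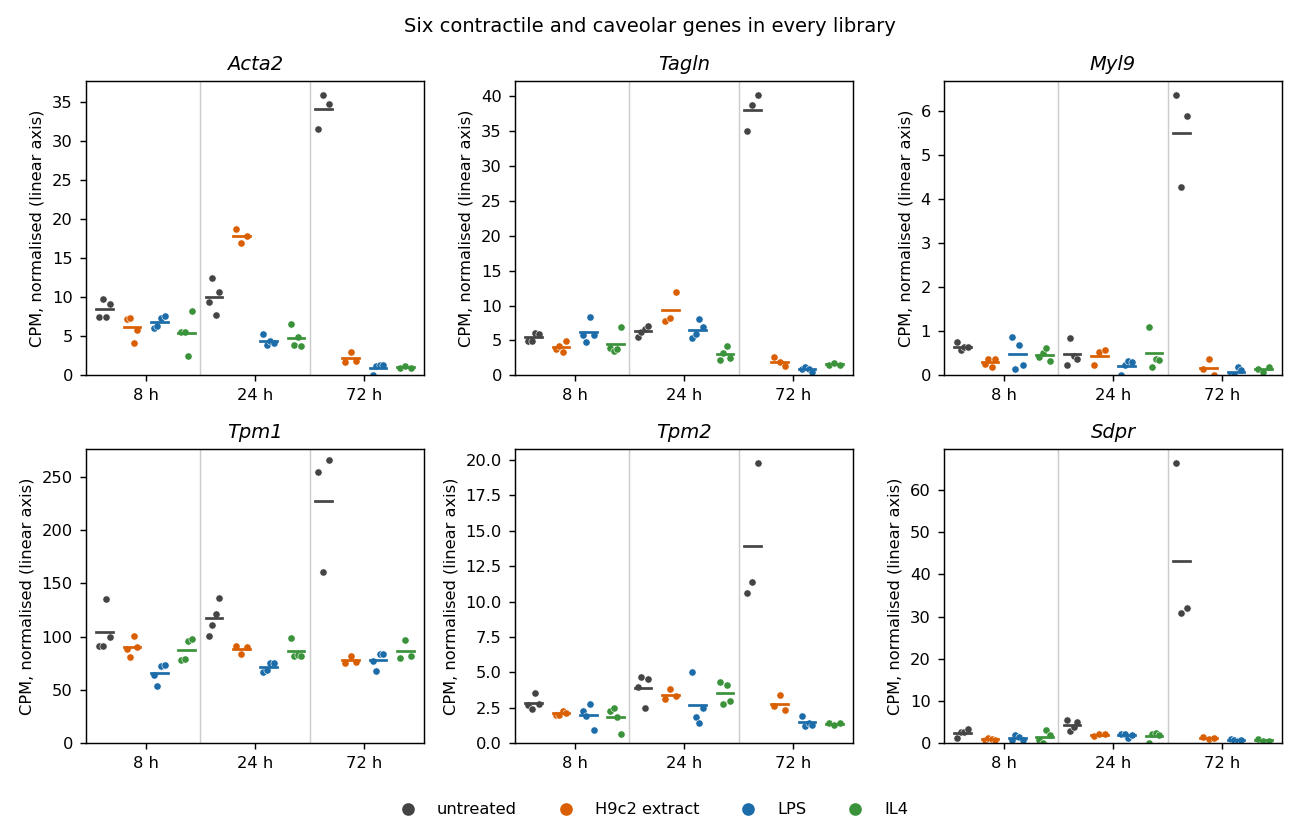
Levels of the 6 tested genes in every library, in CPM on a linear axis, by time and treatment; each point is a library and each bar a group mean. The 3 untreated libraries at 72 h stand above all others in every panel, for example at 31.6 to 35.9 CPM for Acta2.

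At 72 h every stimulus left these genes far below the untreated cultures. All 6 tested genes fell under extract, all 6 under LPS and all 6 under IL4. Myl9 was among them only through its untreated 72 h level. In each case no stimulated library overlapped an untreated one, a description without the share over all tested genes. Of all tested genes, 12.2% fell under extract, 15.4% under LPS and 10.5% under IL4. The median log2 change of the 6 was -4.15, -5.09 and -4.80, against 0.0042, 0.051 and -0.0012 for all tested genes. The 3 comparisons share the same untreated libraries, and the values for each stimulus are therefore given side by side and not as independent results.

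Acta2 stood at 1.74, 3.00 and 1.87 CPM under extract, at 0, 1.21, 1.28 and 1.40 CPM under LPS, and at 0.985, 1.26 and 0.892 CPM under IL4, all far under the 31.6 to 35.9 CPM of the untreated libraries. The LPS library at 0 was the shallowest of that group, where 1 count is worth 0.964 CPM. Against untreated cells Acta2 was 17.1-fold lower under extract, 27.6-fold under LPS and 32.4-fold under IL4 (edgeR adjusted p = 8.38e-15, 8.12e-18 and 2.91e-17).

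Tagln was read at 2.61, 1.88 and 1.40 CPM under extract, at 0.964, 1.21, 0.915 and 0.466 CPM under LPS, and at 1.48, 1.75 and 1.53 CPM under IL4. It was 18.4-fold, 42.2-fold and 23.8-fold lower than in untreated cells (edgeR adjusted p = 8.38e-15, 2.55e-18 and 3.91e-16). No stimulated library of either gene came near the lowest untreated one.

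Myl9 came to 4 counts over the 3 extract libraries, 2 over the 4 LPS libraries and 8 over the 3 IL4 libraries, where the 3 untreated libraries held 53. It was 43.0-fold lower under extract (edgeR adjusted p = 6.75e-08) and 36.1-fold lower under IL4 (edgeR adjusted p = 1.75e-08). Under LPS the ratio of untreated to stimulated was 72.7, with a 95% counting interval of 19.2 to 616. The sizes rest on few reads: without extract replicate 4, which had 0 counts, the fold under extract was 28.3, and without LPS replicate 2 the fitted fold under LPS went from 59.6 to 39.4, both still called. Without the libraries of over 10% ambiguous reads the fitted fold under LPS was 103.

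Tpm1 fell least. It was at 75.4, 81.8 and 76.0 CPM under extract, at 77.1, 67.5, 84.0 and 83.4 CPM under LPS, and at 79.7, 96.8 and 81.8 CPM under IL4, which is 2.92-fold, 2.91-fold and 2.63-fold lower than untreated (edgeR adjusted p = 1.21e-09, 4.04e-11 and 1.08e-08). Tpm2 was at 2.66, 3.38 and 2.33 CPM under extract, at 1.93, 1.21, 1.46 and 1.28 CPM under LPS, and at 1.40, 1.26 and 1.40 CPM under IL4. Every one of these libraries was below the untreated 10.6 CPM, and Tpm2 was 5.05-fold, 10.0-fold and 9.98-fold lower (edgeR adjusted p = 1.86e-06, 4.58e-10 and 1.72e-09).

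Sdpr, the caveolar coat gene, was at 1.51, 1.13 and 1.21 CPM under extract, at 0.964, 0.748, 0.549 and 0.699 CPM under LPS, and at 0.948, 0.559 and 0.637 CPM under IL4, against 30.9 CPM in the lowest untreated library. It was 32.2-fold, 61.4-fold and 58.3-fold lower (edgeR adjusted p = 1.04e-11, 2.05e-14 and 1.82e-13).

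Cnn1 had 0, 0 and 1 counts under extract, 0, 3, 0 and 1 under LPS, and 0 in all 3 IL4 libraries. The ratio of untreated to stimulated was 29.9 for extract (95% counting interval 4.02 to 1329) and 5.49 for LPS (1.47 to 24.9). For IL4, with a floor of 3 counts set over the group, it was 16.0. That value takes the 8 untreated counts as exact and has no interval. Actg2, the gamma-actin, had 10 counts over the extract, 8 over the LPS and 7 over the IL4 libraries against 2 over the untreated, ratios of 1.34 (0.285 to 12.5), 1.46 (0.291 to 14.1) and 0.583 (0.111 to 5.75) of stimulated to untreated. These intervals hold rises as well as falls of the size of Tpm1's, so no direction was detectable for Actg2 at this depth.

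**Figure D2:**
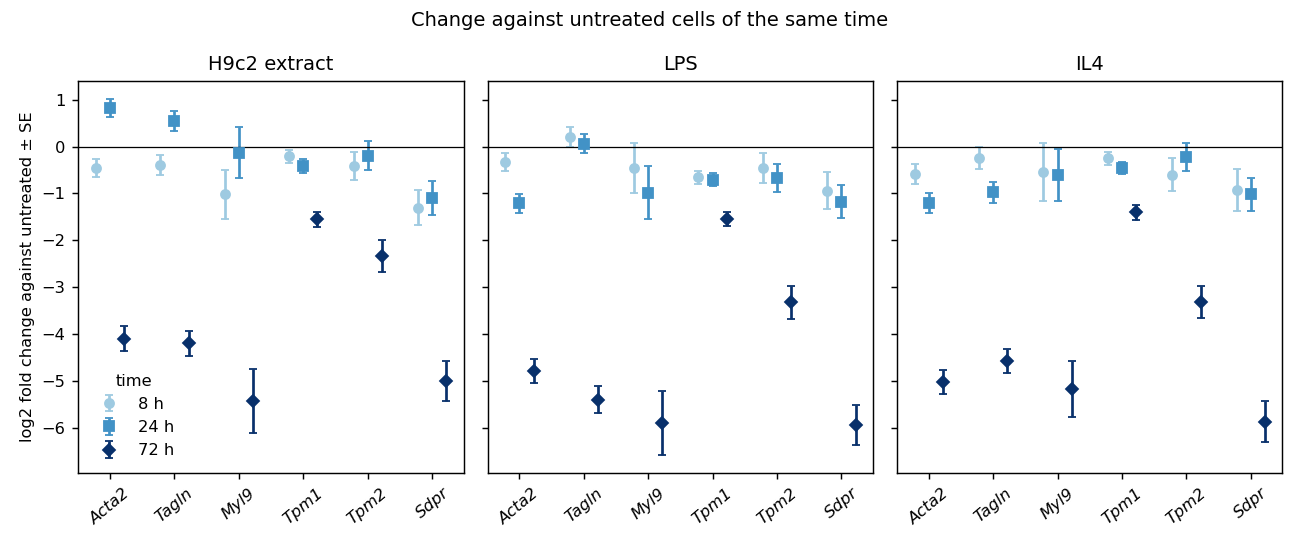
Fitted log2 fold change of the 6 tested genes against untreated cells of the same time, with its standard error, by treatment and time; 0 marks no change. The 72 h values lie between -1.40 and -5.94, below those at 8 and 24 h for every gene and treatment shown.

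The gap at 72 h held both a rise without stimulus and, for some genes, a fall with it. Within the extract cultures Acta2 and Tagln fell from 8 to 72 h, by 3.14-fold and 2.00-fold, where 13.4% of all tested genes fell. Within the LPS cultures Acta2, Tagln and Myl9 fell, where 21.9% of all tested genes fell, Acta2 by 5.55-fold and Tagln by 6.98-fold. The 2 counts of Myl9 at 72 h under LPS against 11 at 8 h gave a ratio of 6.10 with a counting interval of 1.33 to 56.6, and its call was lost without LPS 72 h replicate 2 or LPS 8 h replicate 3 (edgeR adjusted p = 0.113 and 0.121). The call was also lost without the filter on low counts (0.138) and by DESeq2 (0.0543). Within the IL4 cultures Acta2 and Tagln fell by 5.46-fold and 2.89-fold, where 8.74% of all tested genes fell. Tpm1, Tpm2 and Sdpr did not pass the test from 8 to 72 h in any stimulated series, with log2 changes of -0.88 to 0.42; Tpm1 under extract passed in a fit of the compared groups alone (log2 -0.24, edgeR adjusted p = 0.0474). Myl9 did not pass under extract or IL4 (log2 -1.35 and -1.57, edgeR adjusted p = 0.161 and 0.148). Actg2 under LPS had 8 counts at 72 h against 23 at 8 h, a ratio of 0.314 with a counting interval of 0.121 to 0.726. Taking the stimulus effect at 72 h minus that at 8 h, all 6 genes were lower for extract, LPS and IL4 alike, where 8.75%, 14.3% and 6.57% of all tested genes were lower.

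Between stimuli at 72 h the differences were small and not stable. Tagln and Tpm2 were higher under extract than under LPS, by 2.30-fold and 1.98-fold, where 11.0% of all tested genes were higher. Tagln lost that call without extract replicate 2 or LPS replicate 4 (edgeR adjusted p = 0.236 and 0.0583), and Tpm2, at 0.0467, lost it without extract replicate 2, 3 or 4 or LPS replicate 2, 3 or 4, at 0.0644 to 0.116. Acta2 was 1.90-fold higher under extract than under IL4 (edgeR adjusted p = 0.0213), where 7.46% of all tested genes were higher, a call lost without extract replicate 3 or 4 or IL4 replicate 2 or 4, at 0.0519 to 0.102. Tagln was 1.77-fold lower under LPS than under IL4 (edgeR adjusted p = 0.0336), where 20.4% of all tested genes were lower, and that call was lost without LPS replicate 3 or 4 or IL4 replicate 3 or 4, at 0.0527 to 0.331. Each of these 4 calls was also lost in a fit of the compared groups alone, at 0.0737 to 0.127. Of the changes not called, Acta2 and Sdpr were higher in every extract library than in every LPS library (log2 0.69 and 0.93, edgeR adjusted p = 0.145 and 0.170), and Tpm2 and Sdpr were higher in every extract library than in every IL4 library (log2 0.98 and 0.86, edgeR adjusted p = 0.0522 and 0.242). Cnn1 had 0 to 4 counts per stimulated group at 72 h, and the ratios of Actg2 between stimuli had counting intervals that include 1.

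At 24 h the 3 stimuli moved Acta2 in different directions. The extract cultures gave 18.8, 16.9 and 17.8 CPM against 9.39, 12.5, 7.70 and 10.7 CPM untreated, and the LPS cultures gave 5.31, 3.95, 4.38 and 4.15 CPM and the IL4 cultures 6.54, 3.92, 4.90 and 3.79 CPM. Every extract library was above, and every LPS and IL4 library below, all untreated libraries. Acta2 rose 1.77-fold under extract (log2 0.82 ± 0.20 SE, edgeR adjusted p = 0.00131) and was 2.31-fold lower under both LPS and IL4 (edgeR adjusted p = 4.30e-06 and 6.20e-05). Of all tested genes, 11.7% rose and 10.4% fell under extract, 19.3% fell under LPS and 4.76% fell under IL4.

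The course of Acta2 under extract led to 4 further comparisons, chosen after its values were seen. Acta2 was 2.85-fold higher at 24 h than at 8 h of extract and 8.97-fold lower at 72 h than at 24 h, and Tagln was 2.25-fold higher and then 4.51-fold lower (edgeR adjusted p = 4.80e-07, 7.57e-12, 0.000128 and 6.33e-08). In the same steps 11.4% of all tested genes rose and 7.49% fell. At 24 h Acta2 was 4.09-fold higher under extract than under LPS, where 8.06% of all tested genes were higher, and 4.08-fold higher than under IL4, where 12.3% were higher. Tagln was 2.85-fold higher under extract than under IL4 at 24 h (edgeR adjusted p = 1.31e-06) and did not pass the test against LPS (log2 0.48, edgeR adjusted p = 0.126). Myl9, Tpm1, Tpm2 and Sdpr did not pass in any of the 4 comparisons. In fits of the compared groups alone Sdpr and Tpm2 passed for extract at 24 h against 8 h (edgeR adjusted p = 0.0390 and 0.0459) and Tpm1 for extract against LPS (0.0258). Without the libraries under 2 M counts Sdpr passed for 24 h against 8 h (0.0263) and Myl9 for 72 h against 24 h (0.0493).

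**Figure D3:**
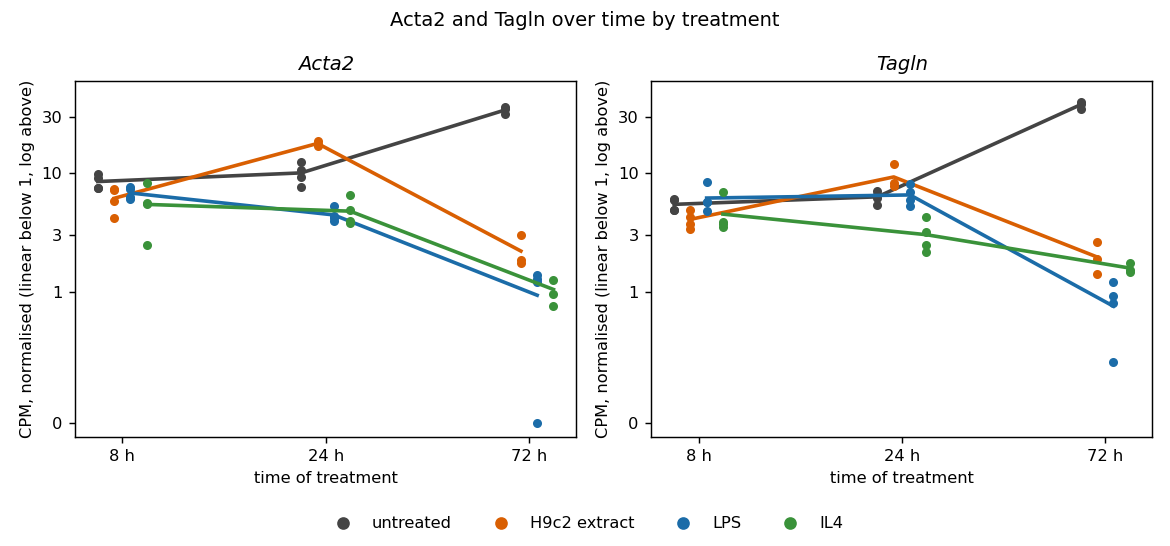
Acta2 and Tagln in CPM over time by treatment, on an axis that is linear below 1 CPM and logarithmic above; points are libraries and lines join group means. Acta2 reaches 16.9 to 18.8 CPM under extract at 24 h and 1.74 to 3.00 CPM at 72 h, while untreated cultures end at 31.6 to 35.9 CPM.

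Tagln at 24 h was at 7.80, 8.22 and 11.9 CPM under extract, above the 5.43 to 7.09 CPM of the untreated libraries, without passing the test (log2 0.54 ± 0.21 SE, edgeR adjusted p = 0.0645); it passed in a fit of the compared groups alone (0.0366), by DESeq2 (0.0446) and without the libraries under 2 M counts (0.0437). Under IL4 it fell to 2.18, 3.21, 4.24 and 2.49 CPM, below all untreated libraries (log2 -0.97 ± 0.22 SE, edgeR adjusted p = 0.00255). Under LPS, at 5.31, 5.97, 8.05 and 6.92 CPM, it overlapped the untreated libraries (log2 0.06 ± 0.21 SE, edgeR adjusted p = 0.861).

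Tpm1 fell at 24 h under all 3 stimuli, by 0.71 on the log2 scale under LPS (edgeR adjusted p = 4.26e-05), by 0.46 under IL4 (0.0274) and by 0.41 under extract (0.0395), and no stimulated library overlapped an untreated one. The extract call was lost without untreated replicate 3 or 4 or extract replicate 2, 3 or 4 (edgeR adjusted p = 0.0784 to 0.151), and the IL4 call without untreated replicate 3 or 4 or IL4 replicate 2, 3 or 4 (0.0618 to 0.114). The extract call was also lost with no filter (0.322), without the libraries of over 10% ambiguous reads (0.139) and without those under 2 M counts (0.0674). The IL4 call was also lost with no filter (0.177), with the groups alone (0.151) and without the ambiguous libraries (0.0534). Sdpr fell under LPS, at 2.24, 2.09, 1.27 and 2.08 CPM against 3.00 to 5.43 CPM untreated (log2 -1.17 ± 0.35 SE, edgeR adjusted p = 0.00606), and under extract, at 1.64, 2.15 and 2.10 CPM (log2 -1.10 ± 0.36 SE, edgeR adjusted p = 0.0221). The extract call of Sdpr was lost without untreated replicate 1 or 4 or extract replicate 2, 3 or 4 (edgeR adjusted p = 0.0536 to 0.103). Under IL4 Sdpr was at 0, 2.24, 2.54 and 1.90 CPM and did not pass (log2 -1.02, edgeR adjusted p = 0.0581), but passed without untreated replicate 2 (0.0478), by DESeq2 (0.0359) and without the libraries under 2 M counts (0.0471), which leaves out the library at 0. Tpm2 under LPS did not pass (log2 -0.67, edgeR adjusted p = 0.0769); in the fit with the replicate number as a block, where these groups' numbers pair the libraries, it did at 0.0470, as it did without untreated replicate 3 (0.0295) or LPS replicate 1 (0.00418). Tpm2 did not pass under extract or IL4 (log2 -0.19 and -0.21), nor did Myl9 under extract, LPS or IL4 (log2 -0.13, -0.98 and -0.61, edgeR adjusted p = 0.917, 0.178 and 0.613). Over a group Cnn1 had 2 to 6 counts and Actg2 15 to 23 at 24 h, and all ratios to untreated had counting intervals that include 1.

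At 8 h, 3 of the 18 combinations of tested gene and stimulus passed the test, all of them lower. The median log2 change of the 6 genes was -0.43 under extract, -0.46 under LPS and -0.56 under IL4, against -0.064, 0.0026 and -0.044 for all tested genes. Under extract 1 of the 6 genes fell, Sdpr, at 0.805, 1.26, 0.946 and 0.887 CPM against 1.15, 2.76, 2.72 and 3.30 CPM (log2 -1.30 ± 0.38 SE, edgeR adjusted p = 0.00702), with 1 extract library above the lowest untreated one, where 17.2% of all tested genes fell. Acta2, Myl9 and Tpm2 were lower under extract in every library than in any untreated one, without passing the test (log2 -0.46, -1.02 and -0.41, edgeR adjusted p = 0.0712, 0.157 and 0.359). Tagln and Tpm1 overlapped (log2 -0.40 and -0.21). Under LPS Tpm1 fell, at 63.8, 53.9, 72.5 and 73.2 CPM against 91.1, 90.8, 135 and 99.4 CPM with no overlap (log2 -0.66 ± 0.14 SE, edgeR adjusted p = 0.000106), where 24.1% of all tested genes fell. Sdpr under LPS, at 0.862, 1.90, 1.39 and 0.690 CPM, passed at 0.0456 in the fit without a block and not in the fit with the replicate number as a block (0.0545), where the numbers pair the libraries. Its call was also lost without untreated replicate 2, 3 or 4 or LPS replicate 1, 3 or 4 (edgeR adjusted p = 0.0669 to 0.14), and with RLE size factors, no filter, the groups alone, DESeq2 or without the ambiguous libraries (0.0532 to 0.0915). The other 4 genes overlapped the untreated libraries under LPS, with log2 changes of -0.46 to 0.21. Under IL4 none of the 6 passed edgeR's test, 2 of 6 had an unadjusted p under 0.05 and DESeq2 called 0, where 8.33% of all tested genes were called in either direction; Acta2 (log2 -0.58, edgeR adjusted p = 0.0998) passed without IL4 replicate 4 (0.0291). The other 5 had log2 changes of -0.92 to -0.24. Cnn1 had 0 to 6 counts per group. Actg2, with 23 counts under LPS and 28 untreated, had a ratio of 1.96 with a counting interval of 1.08 to 3.53, and replicate 4 of the untreated group stood far above its other libraries.

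The order of the 12 groups shows how far the genes share a pattern. In all 6 tested genes untreated 72 h ranked first and did not overlap the next group. The share of all tested genes that do so was not counted, and Myl9 was tested only through that group, so this is a description. The next group was extract at 24 h for Acta2 and Tagln, untreated at 24 h for Tpm1, Tpm2 and Sdpr, and untreated at 8 h for Myl9. For Tpm1, Tpm2 and Sdpr each group from the second place down overlapped its neighbour, whereas Acta2 under extract at 24 h stood clear of untreated at 24 h. The lowest place went to LPS at 72 h for Acta2, Tagln and Myl9, to IL4 at 72 h for Tpm2 and Sdpr, and to LPS at 8 h for Tpm1. Over the 12 group means of log2(CPM + 0.5) Pearson's r between pairs of the 6 genes ran from 0.67 (Acta2 with Tpm1) to 0.96 (Tpm2 with Sdpr), a description of groups that share their libraries. Outside the set and by the same measure, the genes most like Acta2 were Fndc1 (r = 0.94), St5 (0.90) and Des (0.89), and those most like Tagln were Fndc1 (0.94), Prc1 (0.92) and Tead2 (0.89). Shisa4 (0.95), Mylk (0.94) and Mex3a (0.92) were most like Myl9, and Tmeff2 (0.97), Wnt5a (0.93) and Lhfp (0.93) most like Sdpr. Tpm1 was most like Cemip (0.92), Igfbp4 (0.91) and Shisa4 (0.91), and Tpm2 like Msrb3 (0.95), Top2a (0.95) and Bicc1 (0.95).

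Other smooth muscle genes moved with the members in part. Of 18 listed, 13 were tested. From 8 to 72 h without stimulus 5 rose and 0 fell, among them Des, the intermediate filament of muscle, from 5.14 ± 0.672 CPM, Nexn, an actin-filament protein, and Mylk, the kinase that activates the myosin light chain. At 72 h against untreated cells 9 fell and 2 rose under extract, 7 fell and 2 rose under LPS, and 10 fell and 0 rose under IL4. Of all 14537 tested genes 1769 fell and 2058 rose under extract, 2232 and 2344 under LPS, and 1527 and 1914 under IL4. From 8 to 72 h without stimulus 6.38% of all tested genes rose. These values apply to the lists that follow too. Des stood at 19.4 ± 2.71 CPM untreated and at 1.78 ± 0.408 CPM under extract, 1.18 ± 0.576 under LPS and 1.54 ± 0.572 under IL4 (edgeR adjusted p = 1.37e-10, 2.88e-13 and 1.05e-11). Mylk went from 5.30 ± 1.72 CPM to 0.340 ± 0.231, 0.123 ± 0.176 and 0.268 ± 0.239 CPM. Ppp1r12b, a subunit of myosin phosphatase, which switches the light chain off, went the other way, from 10.5 ± 1.39 CPM to 63.7 ± 5.31 under extract and 89.4 ± 29.1 under LPS. Markers of fully mature smooth muscle were close to unread: Myh11, the smooth muscle myosin heavy chain, had 1 count over the untreated 72 h libraries, Myocd 5, and Ppp1r14a 0.

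Among 5 other caveola genes all were tested, and at 72 h 3 fell under each stimulus. Prkcdbp, another cavin, went from 8.63 ± 0.656 CPM untreated to 0.230 ± 0.255 under extract, 0.496 ± 0.333 under LPS and 0.580 ± 0.175 under IL4. Ptrf, the cavin that Sdpr partners with in the caveolar coat, went from 16.0 ± 1.45 CPM to 4.72 ± 0.928 under extract, 3.00 ± 1.40 under LPS and 7.76 ± 0.590 under IL4. The caveolins themselves went the other way under extract and LPS: Cav1 rose from 15.0 ± 3.57 CPM to 43.7 ± 2.93 under extract and 75.4 ± 29.7 under LPS, and Cav2 from 151 ± 44.7 CPM to 368 ± 33.0 and 365 ± 103. The rises numbered 2 of 5 under extract, 2 under LPS and 1 under IL4.

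**Figure D4:**
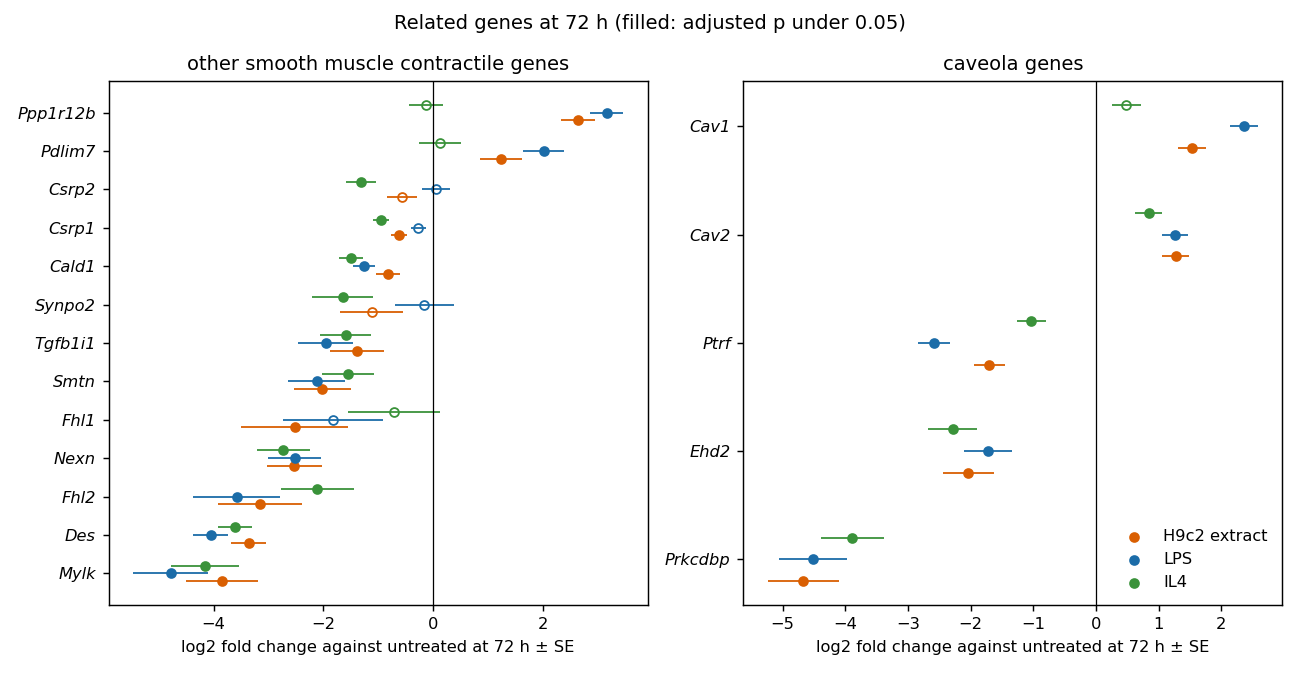
Fitted log2 fold change at 72 h against untreated cells, with its standard error, of the 13 tested smooth muscle genes and the 5 caveola genes; filled points had an edgeR adjusted p under 0.05. Des, Mylk and Prkcdbp lie furthest to the left and Ppp1r12b, Cav1 and Cav2 to the right under extract and LPS.

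The non-muscle relatives of the members fell in part at 72 h. Of 10 tested paralogs 5 fell and 0 rose under extract, 4 fell and 1 rose under LPS, and 7 fell and 1 rose under IL4. Actb, the cytoplasmic beta-actin, went from 3805 ± 986 CPM untreated to 1291 ± 40.2 under extract, 1674 ± 343 under LPS and 1480 ± 150 under IL4, and Cnn2, a calponin of non-muscle cells, from 116 ± 41.9 to 18.1 ± 1.55, 36.8 ± 24.5 and 18.9 ± 1.92 CPM. Reads that fit several actins, tropomyosins or light chains were not counted where their alignment was not unique, so the levels of near-identical relatives are uncertain. Of 14 tested actin-binding and focal adhesion genes, 6 fell and 1 rose under extract, 9 and 2 under LPS, and 4 and 1 under IL4. Of 21 genes of transforming growth factor beta and SRF signalling, all tested, 3 fell and 3 rose under extract, 9 and 4 under LPS, and 8 and 1 under IL4. Under extract 1769 of all 14537 tested genes fell and 2058 rose, so the extract counts of this list were near the share over all tested genes. Cyr61, an SRF target and matrix protein, stood at 12.9 ± 4.74 CPM untreated and at 1.67 ± 0.665 under LPS and 2.66 ± 0.731 under IL4.

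Most tested markers of mesothelial cells and of fibroblasts moved with the members at 72 h. Of 12 tested mesothelial markers 8 rose and 0 fell in untreated cells from 8 to 72 h, and at 72 h 11 fell under extract, 11 under LPS and 7 under IL4. Their summed level was 102 to 167 CPM in the untreated 72 h libraries, 26.9 to 34.2 at 8 h and 35.3 to 41.9 at 24 h, and at 72 h 8.96 to 17.9 under extract, 19.3 to 46.4 under LPS and 12.9 to 37.1 under IL4. Upk3b, a defining mesothelial gene, stood at 39.8 ± 10.9 CPM in untreated cells at 72 h, at 2.38 ± 0.285 CPM at 8 h, and at 0.0992 ± 0.133 under LPS and 1.80 ± 1.26 under IL4; Muc16 was at 0 in every 72 h group. Krt7, a keratin, did not pass at 72 h, at 13.2 ± 6.29 CPM untreated and 8.77 ± 4.85 under extract, 25.2 ± 13.5 under LPS and 7.54 ± 2.66 under IL4, and so makes up much of the sums under extract and LPS. Of 14 tested fibroblast markers 8 rose and 0 fell from 8 to 72 h without stimulus, and 10, 11 and 9 fell under extract, LPS and IL4 at 72 h. Their summed level was 763 to 1587 CPM untreated at 72 h against 272 to 318, 190 to 334 and 128 to 291 CPM under extract, LPS and IL4, and none of the 16 was at 0 there. Untreated replicate 1 had the highest sum of both lists and the highest level of Sdpr and Myl9, but the lowest of Acta2, Tagln and Tpm2. The part of mesothelial cells and fibroblasts in the levels of the members was not tested.

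The same markers are given at 24 h, where Acta2 rose under extract. Of 12 tested mesothelial markers 9 fell and 0 rose under extract, their sum being 10.2 to 14.4 CPM against 35.3 to 41.9 untreated, and 9 fell and 0 rose under LPS, with 8.67 to 18.7 CPM. Fibroblast sums under extract, at 335.5 to 343.6 CPM, lay at the low end of the 336.4 to 409.8 CPM of the untreated libraries, with 3 of 14 tested markers lower and 1 higher. Under IL4 at 24 h, where Acta2 and Tagln fell, 3 mesothelial and 3 fibroblast markers rose and 0 fell of either. Of all 14537 tested genes 689 rose and 692 fell under IL4 at 24 h. The part of mesothelial cells and fibroblasts in the level of Acta2 at 24 h was not tested.

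Markers of further cell types were summed in the same way. Pericyte sums were 2.49 to 5.89 CPM in untreated cells at 72 h and 0.255 to 2.34 CPM in the stimulated libraries of that time, with Cspg4 at 0 in the former. Endothelial sums, at 25.7 to 35.8 CPM untreated and 32.0 to 38.7 CPM under extract at 72 h, overlapped. They were lower under LPS (16.2 to 24.1 CPM) and higher under IL4 (53.7 to 73.0 CPM), and Cldn5 was at 0 in every 72 h group. Vwf and Kdr made up most of these sums, so they do not speak for every endothelial marker. Unscaled for depth, Vwf held 168 counts untreated and 3244 under IL4 at 72 h, where Cdh5 held 2 and 14. Striated muscle markers summed to 3.33 to 6.32 CPM under extract at 24 h against 10.5 to 11.3 CPM untreated. At 72 h their sums were 14.6 to 21.4 CPM untreated against 4.58 to 8.21 under extract, 6.75 to 14.2 under LPS and 4.08 to 4.89 under IL4. Tnni2 made up most of the untreated sums. Over the group, unscaled for depth, it held 277 counts untreated and 29 under extract at 24 h, and 106 untreated at 72 h. Other markers did not follow it: Tnnt1 held 27 counts untreated and 64 under extract at 24 h. Tnnc1 held 21 counts untreated and 123 under LPS at 72 h. Macrophage marker sums at 72 h were 10523 to 18341 CPM untreated and 27339 to 31488 CPM under extract, and overlapped the untreated ones under LPS (13272 to 22581 CPM) and IL4 (11853 to 17701 CPM). Lyz2 made up most of these sums, so they do not speak for every macrophage marker. Unscaled for depth, it held 103784 counts over the untreated and 877926 over the extract libraries, where Cd68 held 9511 and 27281. Platelet and megakaryocyte sums at 72 h went the other way, at 22.5 to 30.5 CPM untreated against 178 to 192 under extract and 92.5 to 201 under LPS. Under IL4, at 25.5 to 189 CPM, they overlapped the untreated ones. Pf4 made up most of these sums, with 220 counts untreated and 6421 under extract, unscaled for depth. The part of these cell types in the levels of the members was not tested.

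**Figure D5:**
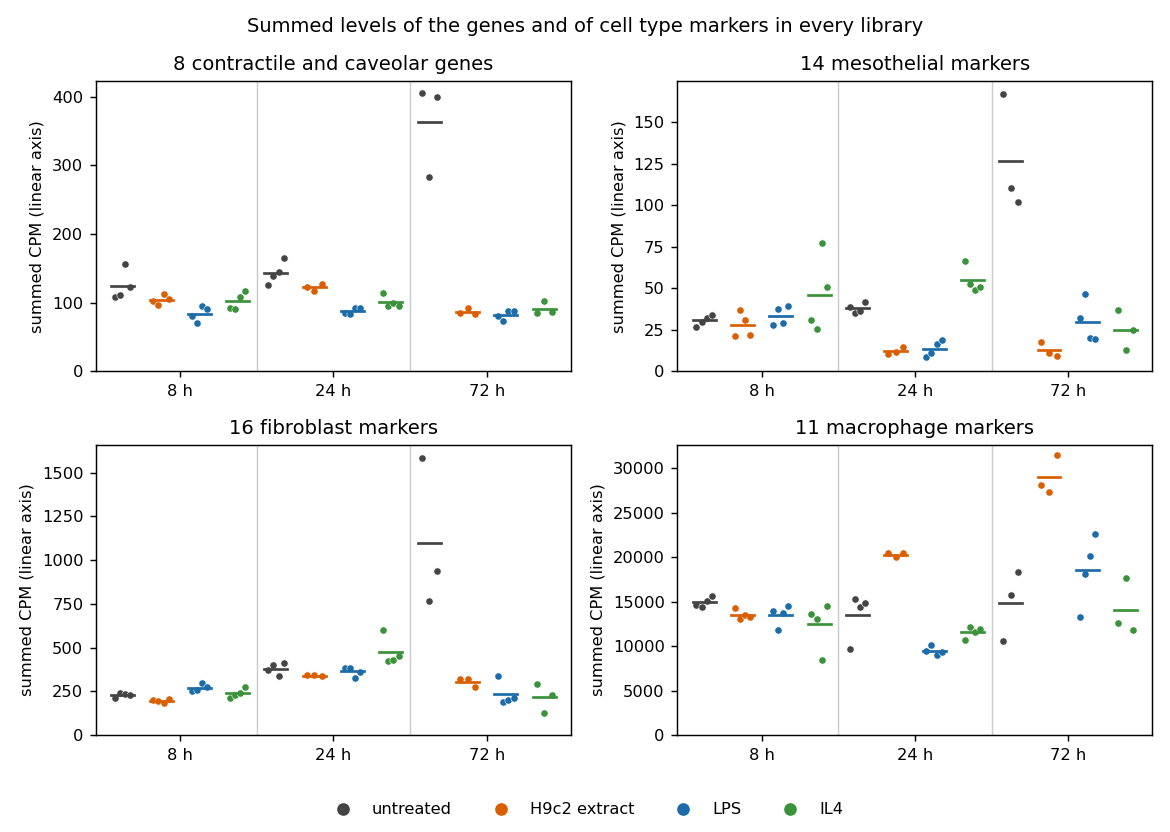
Summed CPM of the 8 genes and of mesothelial, fibroblast and macrophage markers in every library, on linear axes; points are libraries and bars group means. The untreated 72 h libraries are highest for the members, the mesothelial markers (102 to 167 CPM) and the fibroblast markers (763 to 1587 CPM), but not for the macrophage markers.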

How the data were processed

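RNA was measured in 44 libraries of 12 groups, made with the Diagenode CATS kit from polyadenylated RNA and read from 1 end over 50 bp, per the labels' protocols and design text. The authors deposited 1 table of raw counts by Ensembl gene, made with cutadapt, TopHat2 2.1.1, Bowtie2 and HTSeq on mm10, per the submitters' processing notes. Neither annotation release nor strand setting is given in the sources used here. Library sizes and tests leave out the 5 summary entries of the counting. Sdpr is Cavin2 in GENCODE M21 and RefSeq, and positions, exon lengths and overlaps came from GENCODE M21 (GRCm38).

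Counts were tested with edgeR 4.0.16 in R 4.3.3: filterByExpr with a minimum count of 10, TMM, 1 quasi-likelihood fit of all libraries with a coefficient per group (32 residual degrees of freedom, common biological coefficient of variation 0.219), and Benjamini-Hochberg adjustment over 14537 genes within a comparison. Fold changes use a prior count of 0.125. Standard errors are on the log2 scale. The script was tested on simulated data. Replicates of a group differed beyond sampling noise. For low counts, 95% intervals are exact binomial and the floor is 3 counts over the group, with the counts of the other group taken as exact. Both cover counting error only, because PCR copies of a molecule cannot be recognised.

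All 8 members were to be named in every comparison, and those that did not pass are in part given as a range. From 12 other lists up to 4 tested genes with the smallest p are named, fewer where space asked for it. Genes most alike are the 3 with the highest r among tested genes of at least 1 CPM. The members, the lists and the comparisons were chosen with earlier results of these data known. Replicate numbers were taken to pair libraries where each same-numbered pair's deviations from the group means correlated over 0.1, which held in 6 of 22 comparisons of 2 groups: extract and LPS against untreated at 8 h, LPS against untreated at 24 h, untreated 24 h against 8 h and 72 h against 24 h, and extract 72 h against 8 h. Alternatives were RLE size factors, DESeq2 1.42.0, no filter, the compared groups alone, the replicate block and each library left out; added after the data were seen were fits without the 7 libraries of over 10% ambiguous reads and without the 5 of under 2 M counts, and 4 comparisons on the course of Acta2.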

Additional observations from a re-analysis of the deposited data

Results flagged for a closer look

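In groups of 4 libraries, a gap between the highest or lowest library and its nearest neighbour was set against the range of the group, and 5 of 64 combinations of gene and group passed Dixon's 95% value, where chance gives about 1 in 20. Acta2 was read at 0 CPM in replicate 1 of LPS at 72 h, against 1.21 to 1.40 CPM in the other libraries. Actg2 stood at 1.39 CPM in replicate 4 of untreated cells at 8 h. Sdpr was at 1.27 CPM in replicate 3 of LPS at 24 h, below the rest. Tagln was at 6.96 CPM in replicate 4 of IL4 at 8 h, and Tpm1 at 99.1 CPM in replicate 1 of IL4 at 24 h, both above the rest.

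The stimulus effect against untreated cells differed between 72 h and 8 h in all 18 cases of 6 genes and 3 stimuli, by the contrast of the 2 effects in the fit (edgeR adjusted p = 2.84e-15 to 0.00184). The log2 effect at 72 h minus that at 8 h for extract was -3.64 for Acta2, -3.80 for Tagln, -4.41 for Myl9, -1.34 for Tpm1, -1.93 for Tpm2 and -3.71 for Sdpr. For LPS it was -4.46 for Acta2, -5.61 for Tagln, -5.44 for Myl9, -0.88 for Tpm1, -2.86 for Tpm2 and -5.00 for Sdpr. For IL4 it was -4.44 for Acta2, -4.33 for Tagln, -4.63 for Myl9, -1.15 for Tpm1, -2.72 for Tpm2 and -4.94 for Sdpr. The Myl9 value for LPS rests on 2 counts at 72 h. It was -4.85 without LPS 72 h replicate 2 and -6.22 without the libraries of over 10% ambiguous reads, and the value for extract was -3.80 without extract 72 h replicate 4 and -5.10 without those libraries.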

How the results depend on the processing

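All 6 genes tested stayed called against untreated cells at 72 h for each stimulus, and in untreated cells at 72 h against 24 and 8 h, under every alternative and with each library left out. The same held for the differences between the effects at 72 and 8 h, except that DESeq2 gave no adjusted p for Myl9 under IL4 and called the other 5. The count for LPS at 8 h was 1 in place of 2 with RLE size factors, no filter, the replicate block, without libraries of over 10% ambiguous reads, with the groups alone and by DESeq2. For extract against LPS at 72 h it was 1 in place of 2 with RLE, no filter, without ambiguous libraries and by DESeq2, and 0 with the groups alone. For extract against IL4 at 72 h it was 2 in place of 1 with RLE, the block, without libraries under 2 M counts and by DESeq2, and 0 with no filter and without ambiguous libraries. For LPS against IL4 at 72 h it was 0 in place of 1 with RLE, no filter, the groups alone, DESeq2 and without ambiguous libraries. With the groups alone it was 4 in place of 2 for extract at 24 h against 8 h, and 2 in place of 1 for extract against LPS at 24 h. With 1 library left out, counts ran from 1 to 2 for LPS and 0 to 1 for IL4 at 8 h, 1 to 3 for extract, 3 to 4 for LPS and 2 to 4 for IL4 at 24 h, 0 to 2 for extract against LPS and 0 to 1 for extract against IL4 and LPS against IL4 at 72 h, and 2 to 3 for LPS at 72 h against 8 h and extract at 72 h against 24 h. Without the libraries of over 10% ambiguous reads, Sdpr under LPS at 24 h (edgeR adjusted p = 0.0593) and Tpm1 under extract (0.139) and IL4 (0.0534) at 24 h were lost.

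Log2 changes that changed sign were all uncalled. Tpm1 in extract at 24 h against 8 h was 0.0083 with no filter and 0.065 without ambiguous libraries, in extract against LPS at 72 h 0.051, 0.096 and, without shallow libraries, 0.031, and in IL4 at 72 h against 8 h 0.069, 0.014 and 0.0038 likewise. Sdpr in extract against LPS at 24 h was -0.085 without ambiguous libraries. Tpm2 in LPS against IL4 at 72 h was 0.0043 with the groups alone, 0.035 by DESeq2 and 0.055 with RLE. With 1 library left out, Tpm1 ran from -0.078 to 0.048 in extract at 24 h against 8 h, from -0.27 to 0.0011 in extract at 8 h, from -0.011 to 0.064 in extract against LPS at 72 h, and from -0.105 to 0.048 in IL4 at 72 h against 8 h. Myl9 ran from -0.29 to 0.28 in extract at 24 h, from -0.65 to 0.34 in extract against IL4 and from -0.11 to 1.06 in extract against LPS at 72 h. Tagln ran from -0.040 to 0.61 in extract against IL4 at 72 h, from -0.022 to 0.13 in LPS at 24 h and from -0.030 to 0.31 in LPS at 8 h. Sdpr ran from -0.15 to 0.047 in extract against IL4 and from -0.098 to 0.18 in extract against LPS at 24 h, and from -0.22 to 0.21 in LPS against IL4 at 72 h. Tpm2 ran from -0.11 to 0.17 in extract against IL4 at 24 h and from -0.096 to 0.086 in LPS against IL4 at 72 h. The cause of these shifts was not tested.

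In the 6 comparisons whose replicate numbers pair the libraries, the block changed no call but those of Sdpr at 8 h and Tpm2 at 24 h of LPS. Over all comparisons 51 of 71 pairs correlated over 0.1, with r of -0.19 to 0.62. RLE moved the median of all genes by over 0.1 in IL4 at 72 h (-0.11) and in the effect differences of extract (-0.13) and IL4 (-0.16). Without the filter Cnn1 was tested at 72 h, with edgeR adjusted p = 0.0283 for extract, 0.218 for LPS and 0.000438 for IL4. Depth limits Cnn1, Actg2 and the size of the Myl9 changes.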
